A study of Mus musculus with 24 samples.

Results

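Interferon-stimulated genes are the 39 genes described here, chosen as a list of symbols and found by symbol in the count table, which held 24046 genes. All 39 were in the table, and 38 passed the filter on low counts. Ifi44 did not. The genes were followed in 24 RNA-seq libraries of mouse leukaemia cells from the bone marrow of moribund secondary transplant recipients. All libraries carry the MLL-AF9 fusion and a Cre transgene. In the MxCre set titled A2 and the MxCre set titled A1b, recipients received 3 injections of pIpC HMW, a synthetic double-stranded RNA, within a week from day 21 after transplantation, each of 12.5 µg per g of body weight. Each of these sets has 3 floxed libraries (fl/fl MxCre+) and 3 control libraries (+/+ MxCre+). The cell type labels of the set titled A2 name Arid1b and those of the set titled A1b name Arid2, so both sets are called by title, and which gene was floxed in each cannot be told apart from the labels. The VavCre Arid1b set has 3 floxed libraries (Arid1b fl/fl VavCre+, numbered 1, 3 and 4) and 3 controls (Arid1b +/+ VavCre+). The VavCre Arid2 set has 3 floxed libraries (Arid2 fl/fl VavCre+) and 3 controls (Arid2 +/+ VavCre+). Arid1b and Arid2 encode subunits of SWI/SNF chromatin remodelling complexes.

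A cell that senses viral RNA or DNA secretes interferon, which binds receptors on the same and neighbouring cells and activates transcription factors, STAT2 and IRF9 among them. These factors bind the interferon-stimulated response element (ISRE) in the promoters of antiviral genes and raise their transcription. pIpC is read as viral RNA by this system, and Mx-Cre uses the interferon-inducible promoter of Mx1, so pIpC switches that Cre on. Vav-Cre needs no inducer and works in blood cells from early in development. Leukaemic marrow was therefore compared between MxCre sets, which had been given pIpC, and VavCre sets, which had not. The labels do not give the time between the last injection and sampling, nor whether libraries of a group came from separate primary leukaemias. If they did not, the p-values reflect no more than the spread among these libraries, which may be technical. Cre driver, pIpC and set changed together and cannot be told apart.

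Of the 39 members, 31 matched a promoter in RefSeq (GRCm38.p6), taken as 250 bases before to 50 bases after the start. Dhx58, Oas2, Zbp1, Rtp4, Mx1, Parp14, Usp18 and Mx2 were not matched. The ISRE core, searched as GAAA followed by any 2 bases and GAAA again, on both strands with overlapping matches allowed, was in 51.6% of the 31 matched members (16 genes), against 3.99% of all 27025 genes with a promoter of that length. The interferon gamma activated site, searched as TTCNNNGAA, which reads the same on both strands, was in 25.8% of the matched members (8 genes), against 9.55% of all genes. Windows of 5 members are printed because the results turn on Oas1g, Oas1a and Ddx58, and because Rsad2 and Isg15 had their highest level in MxCre titled A2 floxed 3, a library described below. Capitals mark the ISRE core, on either strand.
Oas1g, chr5:120887564-120887863, minus strand: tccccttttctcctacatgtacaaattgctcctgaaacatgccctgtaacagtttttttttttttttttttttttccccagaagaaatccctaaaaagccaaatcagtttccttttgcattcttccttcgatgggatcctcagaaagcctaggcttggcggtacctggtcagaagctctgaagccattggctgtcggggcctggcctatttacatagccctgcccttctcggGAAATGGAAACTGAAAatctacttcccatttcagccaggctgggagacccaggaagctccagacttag
Oas1a, chr5:120907476-120907775, minus strand: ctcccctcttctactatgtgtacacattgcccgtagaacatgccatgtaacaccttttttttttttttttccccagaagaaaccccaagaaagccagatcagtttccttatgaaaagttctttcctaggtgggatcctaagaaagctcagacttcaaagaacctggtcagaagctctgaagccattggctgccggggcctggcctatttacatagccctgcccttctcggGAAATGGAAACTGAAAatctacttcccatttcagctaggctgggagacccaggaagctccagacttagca
Ddx58, chr4:40239776-40240075, minus strand: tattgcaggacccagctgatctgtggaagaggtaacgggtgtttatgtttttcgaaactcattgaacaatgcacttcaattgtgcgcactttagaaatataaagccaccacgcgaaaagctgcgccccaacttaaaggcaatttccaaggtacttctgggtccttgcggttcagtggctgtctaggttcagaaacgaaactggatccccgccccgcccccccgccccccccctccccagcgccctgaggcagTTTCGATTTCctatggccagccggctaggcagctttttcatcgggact
Isg15, chr4:156200769-156201068, minus strand: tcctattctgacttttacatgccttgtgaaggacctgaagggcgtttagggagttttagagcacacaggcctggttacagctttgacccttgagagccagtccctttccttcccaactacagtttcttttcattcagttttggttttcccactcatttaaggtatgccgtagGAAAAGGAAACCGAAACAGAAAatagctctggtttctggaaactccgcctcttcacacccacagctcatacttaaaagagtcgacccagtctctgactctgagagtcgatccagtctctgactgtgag
Rsad2, chr12:26456403-26456702, minus strand: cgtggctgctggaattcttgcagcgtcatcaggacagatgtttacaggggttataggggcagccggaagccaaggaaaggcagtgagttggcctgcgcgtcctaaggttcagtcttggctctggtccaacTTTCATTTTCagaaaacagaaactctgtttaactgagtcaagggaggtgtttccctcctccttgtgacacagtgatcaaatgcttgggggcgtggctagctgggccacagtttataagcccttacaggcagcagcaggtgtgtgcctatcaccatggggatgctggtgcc

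Oas1g and Oas1a are neighbours on chromosome 5, at 120876142 to 120887613 and 120896256 to 120907544. Their promoter windows share a stretch of 73 identical bases that holds a pair of overlapping ISRE cores, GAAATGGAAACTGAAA. The first core began at -18 and the second at -12 in Oas1g, and at -20 and -14 in Oas1a, counted from the start of the gene. These paralogs have similar sequence and the read counter is not given, so reads may be split between them and the level of each is uncertain. In Isg15, 3 overlapping cores began at -78, -72 and -66. The single core of Rsad2 lay at -120, and that of Ddx58 at +3, with the start base as +1. A match is a description of the letters in the window and not a measured binding site.

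The libraries held 12069153 to 38315410 counts. Levels below are CPM, the share of a library's reads scaled to 1e6 reads, after scaling of library sizes by the trimmed mean of M values. Log2 fold changes are given with their standard error (SE), and adjusted p-values are from edgeR's quasi-likelihood test with Benjamini-Hochberg adjustment over 14099 genes at a threshold of 0.05. Shares of all genes called are by edgeR at that threshold. No share is given for counts at an unadjusted p or by DESeq2 or limma voom. For edgeR fits with other settings or with libraries left out, a share is given only where stated. Counts without a share stand without a background. The summed level of 8 markers of MLL-AF9 myeloid leukaemia was 2501 to 17848 CPM over the 24 libraries, with all 8 above 0 in every group. 3 libraries stood apart in earlier results of these data, MxCre titled A2 floxed 3, MxCre titled A1b floxed 2 and VavCre Arid1b control 3, and values without them are given where they change a result. 10 libraries were Y-positive (Kdm5d above 10 CPM). In the VavCre Arid1b set no floxed library and every control library was Y-positive, and in the MxCre set titled A2 every floxed library and no control was.

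Compared by length, as RPKM, CPM divided by the exon length in kilobases, Psmb8, a subunit of the immunoproteasome, was the most abundant member, at 76.8 ± 30.3 RPKM (SD, n = 24). Bst2, a membrane protein that tethers budding virus, followed at 45.6 ± 17.2 RPKM, and Tap1, a subunit of the peptide transporter for MHC class I, at 30.1 ± 11.1 RPKM. Psmb9, another immunoproteasome subunit, came next. Neighbours in this order overlapped in their spread. At the low end were Ifit1, which binds viral RNA caps, at 0.863 ± 1.44 RPKM, and Ifi44 at 0.0142 ± 0.0307 RPKM (SD, n = 24). For both the SD exceeded the mean. Irf7, Isg15, Gbp2, Ifit3, Oas3, Oas1g, Usp18, Rtp4, Rsad2, Cxcl10, Oasl1 and Oasl2 also had an SD above their mean, so their levels varied widely among libraries.

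**Figure D1:**
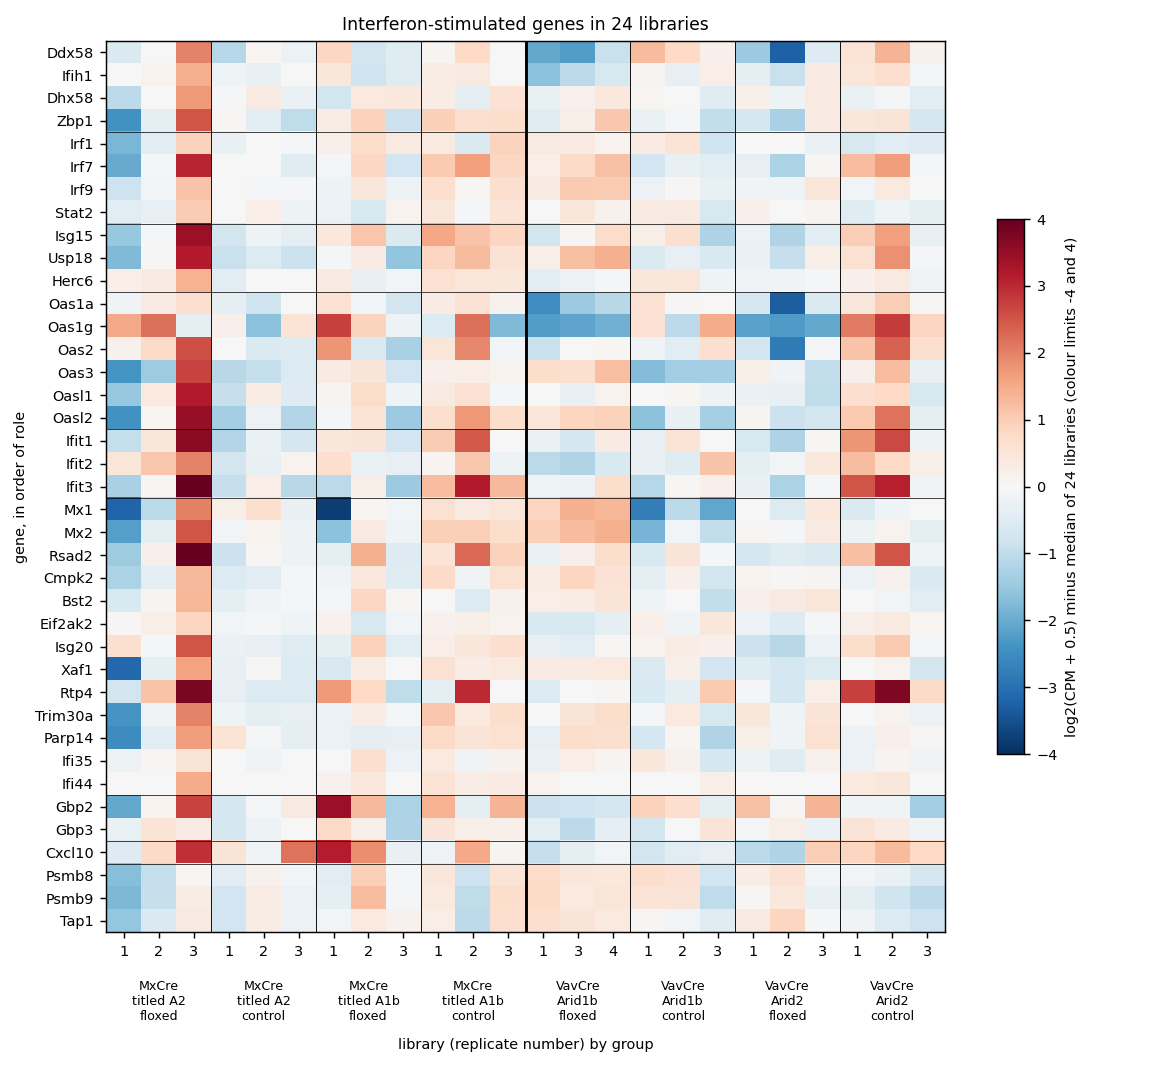
Level of each of the 39 genes (rows, in order of role) in each of the 24 libraries (columns, by group), as log2(CPM + 0.5) minus the gene's median over the 24 libraries, with colours limited to -4 and 4. MxCre titled A2 floxed 3 is red for nearly every gene, and MxCre titled A2 floxed 1, beside it, is blue for most.

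MxCre libraries were set against VavCre libraries first, 12 against 12. No member passed the test: 0 of 38 were called by edgeR, where 0.17% of all genes tested were called (24 of 14099, 0.142% higher and 0.0284% lower), 4 members had an unadjusted p under 0.05, DESeq2 called 2 and limma voom called 0. 34 of the 38 members had a positive log2 fold change, with a median of 0.36, against 0.01 over all genes tested. Without MxCre titled A2 floxed 3, 14 were positive and 24 negative, and the median was -0.05, with 0 calls where 0.189% of all genes were called. Without the 3 libraries that stood apart, the median was -0.21, with 1 member called higher, Oas1g at a log2 fold change of 2.98 (adjusted p = 0.0305), and 1 lower, Psmb8 at -0.66 (adjusted p = 0.0428, both edgeR), where 2.73% of all genes were called. Each MxCre set against each VavCre set gave 0 calls in all 4 pairs, and a fit in limma voom with set as a random block gave 0, with Oas1g at a log2 fold change of 0.68 in that fit. The consensus correlation within sets was -0.0128, so that fit made almost no allowance for set. Fewer cells of a type and less RNA per cell cannot be told apart in these bulk libraries.

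Among the sensors, Ifih1 (MDA5, a cytoplasmic sensor of long double-stranded RNA such as pIpC) had the smallest p of its group in MxCre against VavCre, at a log2 fold change of 0.36 ± 0.20 (± SE; adjusted p in edgeR, 0.507). Its highest value was 105 CPM in MxCre titled A2 floxed 3, and its lowest 11.8 CPM in VavCre Arid1b floxed 1. Dhx58 (LGP2, a regulator of RNA sensing), the sensor with the highest RPKM, differed by 0.29 ± 0.24 (edgeR adjusted p = 0.726). Ddx58 and Zbp1, the other sensors, were positive too, and the median of the 4 was 0.44. Irf7, which amplifies interferon production, differed by 0.49 ± 0.40, and Irf1, which activates many of these genes, by 0.21 ± 0.23 (edgeR adjusted p = 0.717 and 0.819). Stat2 was positive and Irf9 negative, and neither passed. In the ISG15 system Herc6 differed by 0.27 ± 0.13 and Isg15 by 0.78 ± 0.52 (edgeR adjusted p = 0.437 and 0.626), and Usp18 by 0.09 ± 0.44.

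Oas1g, one of the 2'-5' oligoadenylate synthetases that activate RNase L, had the smallest p of the members in MxCre against VavCre, at a log2 fold change of 2.59 ± 0.62 (± SE; adjusted p in edgeR, 0.0821). It had 0.260, 2.87 and 16.6 CPM (lowest, median and highest of 12) in MxCre libraries and 0.0274, 0.461 and 17.2 CPM in VavCre libraries, so the groups overlapped over most of their range. Oas1a, the synthetase with the highest RPKM, differed by 0.58 ± 0.27 (edgeR adjusted p = 0.408), and Oas2, Oas3, Oasl1 and Oasl2 were positive without passing. Ifit2 differed by 0.36 ± 0.24 (edgeR adjusted p = 0.617), with Ifit1 and Ifit3 also positive. Cxcl10, a chemokine that draws T cells, followed at 1.83 ± 0.55 (edgeR adjusted p = 0.160), with 0.653, 2.08 and 14.1 CPM in MxCre and 0.219, 0.804 and 3.51 CPM in VavCre libraries. Gbp2, an interferon-induced GTPase, differed by 1.15 ± 0.51 (edgeR adjusted p = 0.377), with 0.703, 5.39 and 51.9 CPM in MxCre and 1.43, 3.90 and 12.1 CPM in VavCre libraries. Gbp3, the more abundant GTPase of the list, differed by 0.18 ± 0.19. All 3 antigen processing genes, which feed peptides to MHC class I, had negative values, between -0.05 for Psmb9 and -0.29 for Psmb8, and none passed. The signs given here are with all libraries, and most members tested were negative without MxCre titled A2 floxed 3, as given above. Of the other antiviral effectors 12 of 12 tested were positive, with a median of 0.25. They were Rsad2, Isg20, Eif2ak2, Ifi35, Mx1, Mx2, Xaf1, Rtp4, Parp14, Trim30a, Bst2 and Cmpk2, with Isg20 at 0.51 ± 0.27 and Bst2 at 0.09 ± 0.18 (edgeR adjusted p = 0.493 and 0.923).

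Mx1, whose promoter drives the MxCre transgene, did not separate the groups. It had 0.843, 19.9 and 73.3 CPM in MxCre libraries and 2.21, 16.7 and 48.9 CPM in VavCre libraries (lowest, median and highest of 12), a log2 fold change of 0.43 ± 0.46 (± SE; adjusted p in edgeR, 0.817). Among controls alone, where neither side carries a floxed allele, Mx1 averaged 23.3 ± 5.17 CPM in MxCre and 9.91 ± 6.27 CPM in VavCre controls (SD, n = 6 each), a log2 fold change of 1.45 ± 0.66 with an edgeR adjusted p of 0.424. Its neighbour Mx2 stood at 1.10 ± 0.68 and Ddx58 at -0.81 ± 0.50 in that comparison (edgeR adjusted p = 0.517 and 0.516). No member was called between MxCre and VavCre controls (0 of 38 by edgeR, 1 at an unadjusted p under 0.05, 0 by DESeq2 and 2 by limma voom), where 0.00709% of all genes were called. The groups overlapped for every member named here, where 0.234% of all genes lay wholly higher and 0.22% wholly lower in MxCre controls. The median of the members was 0.06.

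MxCre floxed against VavCre floxed libraries, 6 against 6, gave the most calls. 7 of 38 members were higher in MxCre floxed and 0 lower, 18.4% of the members, where 9.25% of all genes tested were called, 6.04% higher and 3.21% lower. They were Oas1g, Oas1a, Ddx58, Isg20, Ifit2, Eif2ak2 and Cxcl10. Most of these calls depended on the fit, and the share of all genes called is not given for the fits named next. With the 12 floxed libraries fitted alone 1 was left, Oas1g (edgeR adjusted p = 0.0229), and with Y-positive status as a covariate 3 were, Oas1g, Oas1a and Isg20 (edgeR adjusted p = 0.00674, 0.0393 and 0.0341). Oas1g was the only member whose groups did not overlap, where 1.26% of all genes lay wholly higher and 0.844% wholly lower in MxCre floxed libraries.

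Oas1g had 6.78, 11.4 and 1.46 CPM in MxCre titled A2 floxed libraries and 16.6, 4.25 and 1.71 CPM in MxCre titled A1b floxed libraries, against 0.0472, 0.0886 and 0.180 CPM in VavCre Arid1b floxed and 0.0781, 0.0274 and 0.122 CPM in VavCre Arid2 floxed libraries. Every MxCre floxed library was thus above every VavCre floxed library, and the VavCre floxed libraries held 1 to 4 reads of the gene each. The log2 fold change was 6.24 ± 1.03 (SE; edgeR adjusted p = 0.0036), which rests on those few reads. It passed in all 12 fits that left out a library. Controls did not show this: Oas1g had 2.46, 0.323 and 3.28 CPM in MxCre titled A2 controls and 1.24, 11.3 and 0.260 CPM in MxCre titled A1b controls, against 3.34, 0.743 and 6.70 CPM in VavCre Arid1b controls and 10.2, 17.2 and 4.18 CPM in VavCre Arid2 controls. The lowest libraries were those of both VavCre floxed groups. In each MxCre set 1 control library, at 0.323 CPM in the set titled A2 and 0.260 CPM in that titled A1b, was close to them.

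Oas1a, the neighbouring synthetase, had 17.5, 24.2 and 30.6 CPM in MxCre titled A2 floxed and 29.4, 17.7 and 11.3 CPM in MxCre titled A1b floxed libraries, against 3.07, 6.73 and 8.71 CPM in VavCre Arid1b floxed and 11.8, 1.54 and 12.7 CPM in VavCre Arid2 floxed libraries. Its log2 fold change was 1.57 ± 0.39 (SE; edgeR adjusted p = 0.0200). The groups overlapped only through MxCre titled A1b floxed 3, which lay below 2 VavCre Arid2 floxed libraries. Ddx58 encodes RIG-I, the sensor of short RNA with a 5' triphosphate. It had 10.9, 16.1 and 66.4 CPM in MxCre titled A2 floxed and 29.5, 9.72 and 11.6 CPM in MxCre titled A1b floxed libraries, against 3.59, 3.06 and 8.59 CPM in VavCre Arid1b floxed and 5.65, 1.26 and 11.4 CPM in VavCre Arid2 floxed libraries. Its log2 fold change was 2.05 ± 0.52 (SE; edgeR adjusted p = 0.0226).

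Eif2ak2 encodes PKR, the kinase that stops translation on double-stranded RNA. It averaged 61.4 ± 21.2 CPM in MxCre floxed and 42.0 ± 6.65 CPM in VavCre floxed libraries (SD, n = 6 each), a log2 fold change of 0.52 ± 0.15 (± SE; adjusted p in edgeR, 0.0334). Its lowest MxCre floxed library, at 35.3 CPM, lay below all the VavCre floxed ones. Ifit2, which binds viral RNA, averaged 35.0 ± 23.2 CPM in MxCre floxed and 14.8 ± 6.65 CPM in VavCre floxed libraries, a log2 fold change of 1.20 ± 0.34 (edgeR adjusted p = 0.0333). Isg20, an antiviral exonuclease, averaged 7.60 ± 7.89 and 2.59 ± 0.853 CPM in MxCre floxed and VavCre floxed libraries, a log2 fold change of 1.42 ± 0.39 (edgeR adjusted p = 0.0295). In both genes the ranges overlapped. Cxcl10 averaged 5.93 ± 5.86 and 0.908 ± 0.954 CPM in the same groups, with a log2 fold change of 2.71 ± 0.80 (edgeR adjusted p = 0.0402).

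Leaving out MxCre titled A2 floxed 3 changed which members were called between floxed libraries. That library was the highest of the 24 for 30 members, so lower values of these members without it were fixed in advance. The fit without it shows how far the calls rest on 1 library and is no separate evidence of lowered genes. Without it, 11 of 38 members were called, 3 higher and 8 lower in MxCre floxed, where 18.2% of all genes were called, and the median of the members was -0.32, against 0.55 with it. The 3 higher were Oas1g at a log2 fold change of 6.46, Oas1a at 1.44 and Ddx58 at 1.43 (edgeR adjusted p = 0.00214, 0.0243 and 0.0419). The 8 lower were Irf9, Mx1, Mx2, Oas3, Cmpk2, Parp14, Psmb8 and Tap1, with Mx1 at -1.87 and Mx2 at -1.64 (edgeR adjusted p = 0.0302 and 0.0492). Eif2ak2, Ifit2, Isg20 and Cxcl10 then missed the threshold, at edgeR adjusted p of 0.0667, 0.0570, 0.0691 and 0.0910. Without the 3 libraries that stood apart, 18 were called, 6 higher and 12 lower, where 23.4% of all genes were called. The count was 1 without VavCre Arid1b floxed 3, 2 without VavCre Arid2 floxed 1, and 3 without VavCre Arid1b floxed 1 or VavCre Arid2 floxed 2. It was 4 without MxCre titled A1b floxed 1. It was 11 without MxCre titled A2 floxed 1, the lowest of the 24 libraries for 20 members. The share of all genes called in each of these fits is not given, so the counts are by themselves no result about the members.

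Marker genes of other blood cells were read in the same comparison, where 9.25% of all genes were called. The summed level of 8 neutrophil markers was 2185 to 20237 CPM in MxCre floxed and 150 to 1606 CPM in VavCre floxed libraries, and 7 of the 8 were called higher by edgeR. Of 7 tested T and NK cell markers 4 were called higher, with sums over the 8 listed of 11.7 to 84.8 CPM in MxCre floxed and 4.58 to 49.7 CPM in VavCre floxed libraries. Of 8 erythroid markers 2 were called higher, with sums of 3.02 to 837 CPM in MxCre floxed and 5.49 to 27.6 CPM in VavCre floxed libraries. Of 6 tested B cell markers 1 was called higher, with sums over the 7 found of 9.65 to 67.1 CPM in MxCre floxed and 2.65 to 64.0 CPM in VavCre floxed libraries. Dendritic cell markers lay the other way. The sum of 9 plasmacytoid dendritic cell markers was 232 to 1376 CPM in MxCre floxed and 1136 to 2526 CPM in VavCre floxed libraries, with 1 of 8 tested, Siglech, called lower. The sum of 8 conventional dendritic cell markers was 20.3 to 404 CPM in MxCre floxed and 174 to 1970 CPM in VavCre floxed libraries, with 0 of 8 called. Of the sums given here, only those of neutrophil markers did not overlap between the sides. No marker of these lists was at 0 over all libraries of either side. The part of these cells in the result was not tested.

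**Figure D2:**
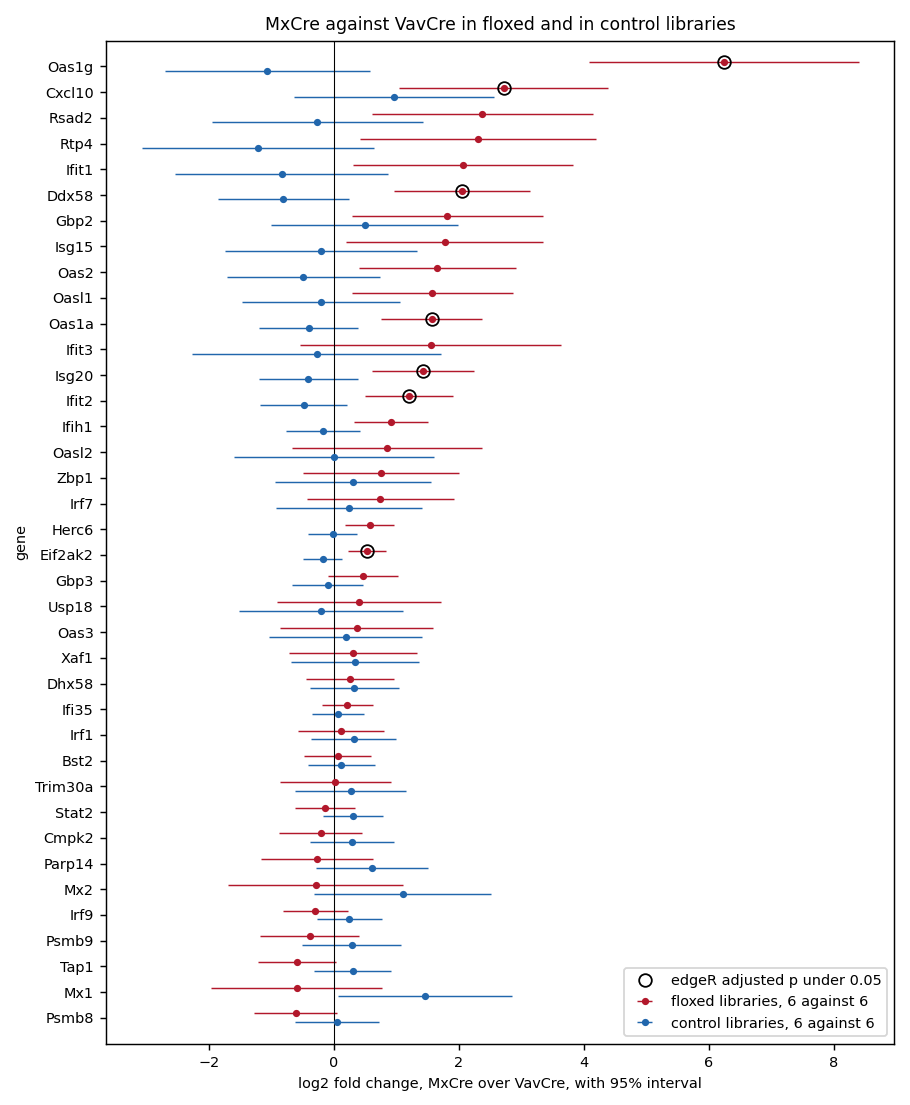
Log2 fold change of MxCre over VavCre for each of the 38 tested genes (rows), in 6 against 6 floxed libraries (red) and 6 against 6 control libraries (blue), with 95% intervals. Black rings mark an edgeR adjusted p under 0.05, which 7 genes reached in floxed libraries and 0 in controls; Oas1g is farthest right in floxed libraries, at 6.24.

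**Figure D3:**
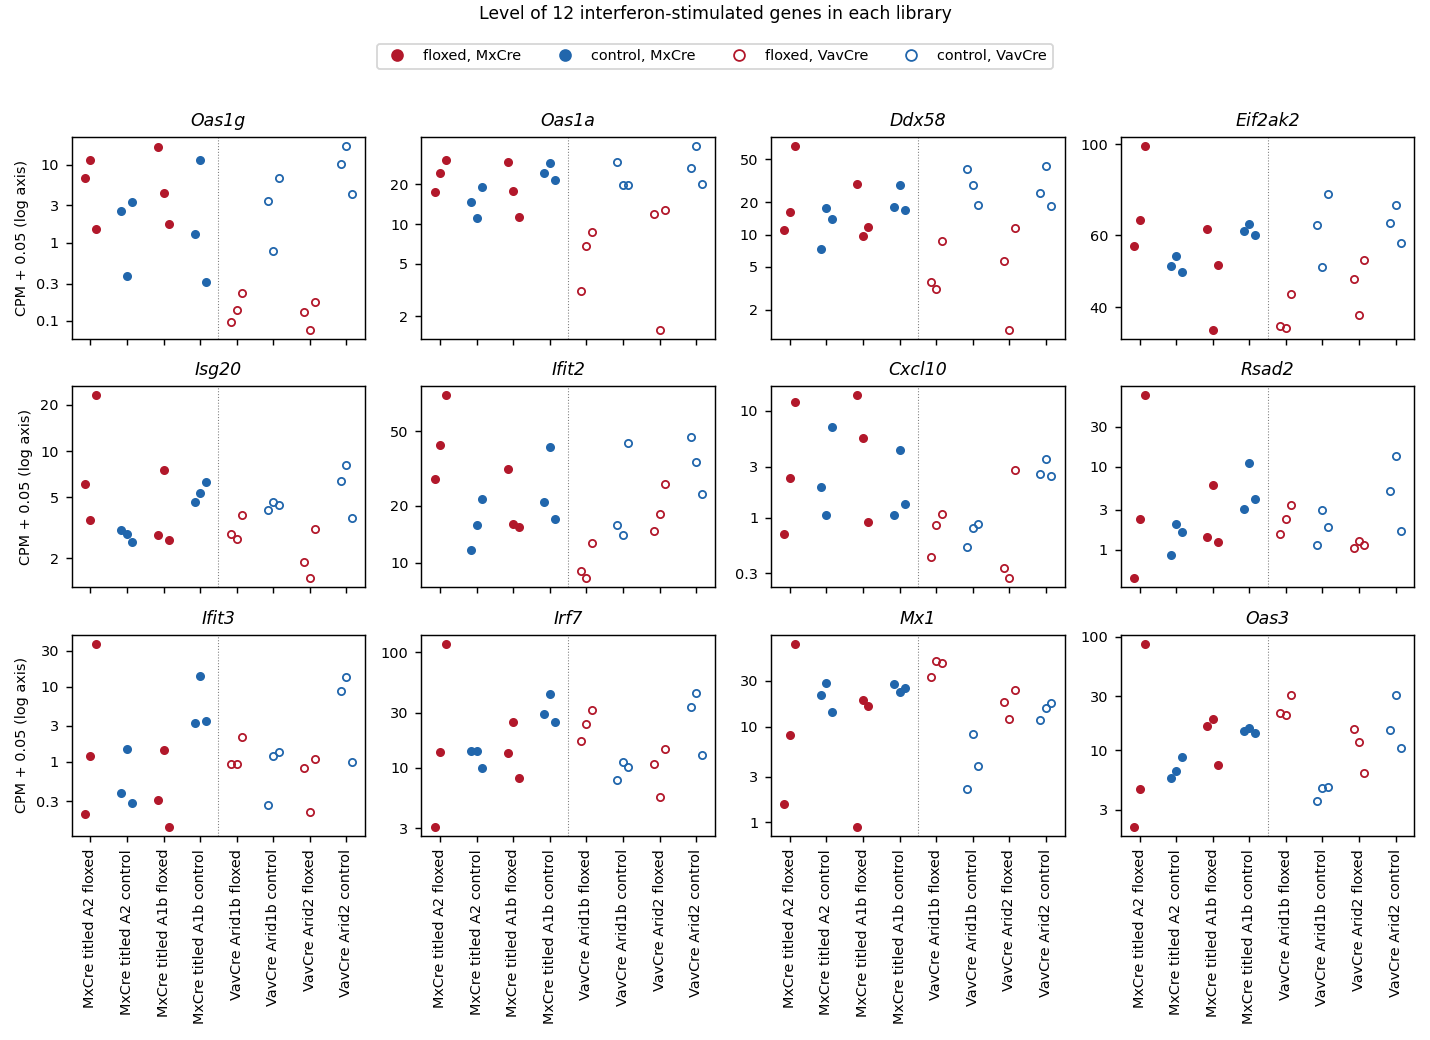
Level of 12 of the genes in each library, as CPM + 0.05 on a log axis, 1 point per library, by group; filled points are MxCre, open points VavCre, red floxed and blue control. Oas1g in the 6 VavCre floxed libraries lies between 0.0274 and 0.180 CPM, below the 18 other libraries, and MxCre titled A2 floxed 3 is highest for Rsad2, Ifit3, Irf7, Mx1 and Oas3.

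The library MxCre titled A2 floxed 3 was the highest of the 24 for 30 of the 39 members, above the 24-library median for 38, and at least 2-fold above it for 30. Rsad2 encodes viperin, which makes a chain-terminating nucleotide. It had 72.6 CPM there, against 0.402 and 2.28 CPM in the other floxed libraries of the set and 0.820, 1.98 and 1.58 CPM in its controls. Isg15, a ubiquitin-like modifier, had 21.0 CPM there, against 0.201 and 1.44 CPM in the other floxed libraries and 0.724, 1.25 and 1.05 CPM in the controls. Usp18, the protease that removes Isg15, had 31.3 CPM against 0.553 and 3.17 CPM in the other floxed and 1.40, 1.94 and 1.46 CPM in the control libraries. In each of these genes a single library carried the group.

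The same library had 119 CPM of Irf7, against 3.01 and 13.6 CPM in the other floxed libraries of the set and 13.9, 13.8 and 9.83 CPM in its controls. Ifit3, an RNA-binding effector, had 37.2 CPM there, against 0.151 and 1.14 CPM in the other floxed libraries and 0.338, 1.43 and 0.234 CPM in the controls. Ifi44, the gene that did not pass the filter, had 13 reads in this library and none in the other 5 libraries of the set. Oas1g went the other way, at 1.46 CPM in this library against 6.78 and 11.4 CPM in the other floxed ones. Of its counts, 16.6% fell on its 10 top genes, where no other library exceeded 4.77%. Summed markers were 10822 CPM for neutrophils, 837 CPM for erythroid cells and 84.8 CPM for T and NK cells, and their part in its levels was not tested.

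Its neighbour MxCre titled A2 floxed 1 was the lowest of the 24 libraries for 20 members, Mx2 at 0.100 CPM and Xaf1, a pro-apoptotic factor, at 0.502 CPM among them. MxCre libraries that had been given pIpC thus spanned both ends of the list. Raised levels were not confined to MxCre libraries. VavCre Arid2 controls 1 and 2 had 12 and 16 members at least 2-fold above their 24-library median, and MxCre titled A1b control 2 had 14. Rtp4, a receptor chaperone induced by interferon, had 0.807, 0.329 and 1.10 CPM in the VavCre Arid2 floxed libraries, against 8.34, 17.5 and 1.77 CPM in the VavCre Arid2 controls, the third of which lay close to the floxed libraries. The highest value of Rtp4 over all libraries, 17.6 CPM in MxCre titled A2 floxed 3, was close to that of VavCre Arid2 control 2.

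**Figure D4:**
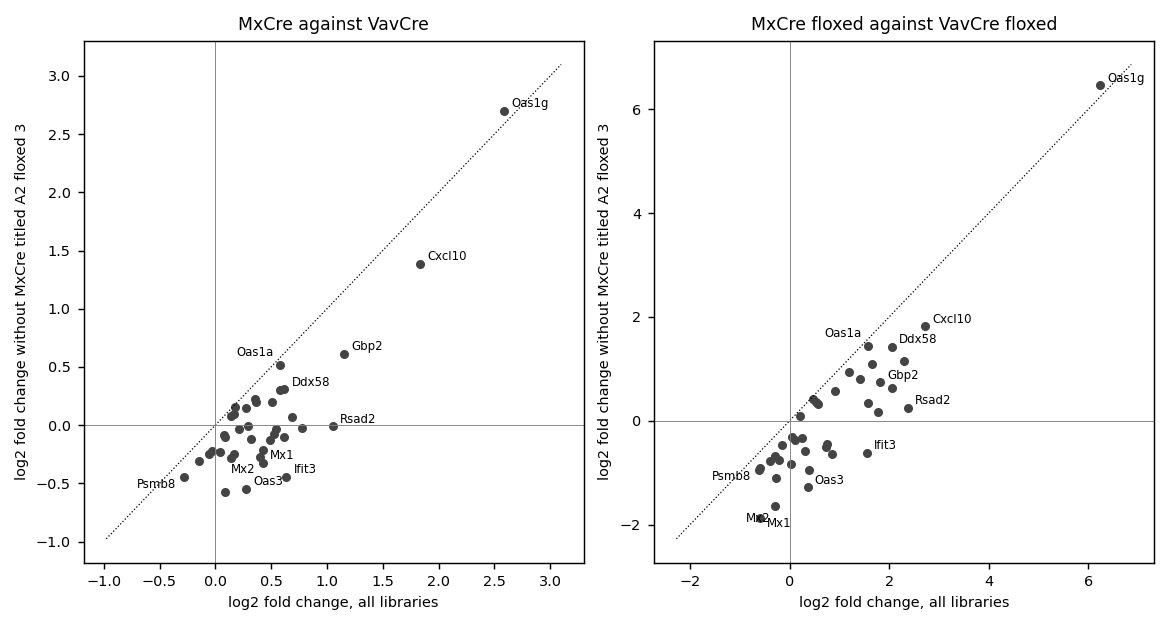
Log2 fold change of each of the 38 tested genes with all libraries (x axis) and without MxCre titled A2 floxed 3 (y axis), for MxCre against VavCre (left) and MxCre floxed against VavCre floxed (right); dotted lines mark equal values. Most genes lie below the line, and Mx1 falls to -1.87 in floxed libraries while Oas1g stays at 6.46. The library left out was the highest of the 24 for 30 members, so a fall of these was fixed in advance.

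Within the sets, floxed libraries were compared with their own controls. In the VavCre Arid1b set, 0 of 38 members were higher and 4 lower in floxed libraries, 10.5% of the members, where 6.57% of all genes were called, 3.52% higher and 3.05% lower. Oas1g, at the CPM given above, had a log2 fold change of -5.07 ± 1.43 (± SE; adjusted p in edgeR, 0.0409). Oas1a had 3.07, 6.73 and 8.71 CPM in floxed and 29.6, 19.9 and 19.6 CPM in control libraries, a log2 fold change of -1.90 ± 0.55 (edgeR adjusted p = 0.0460). Ddx58 had 3.59, 3.06 and 8.59 CPM in floxed and 40.5, 29.0 and 18.9 CPM in control libraries, a log2 fold change of -2.54 ± 0.75 (edgeR adjusted p = 0.0484). Eif2ak2 had 36.0, 35.6 and 43.1 CPM in floxed and 63.6, 50.2 and 75.7 CPM in control libraries, a log2 fold change of -0.73 ± 0.21 (edgeR adjusted p = 0.0444).

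All 4 had every floxed library below every control. These calls were close to the threshold. None of the 4 was called without control 1, control 3, floxed 1, floxed 3 or floxed 4 in turn, and 2 were without control 2. With no filter on low counts 0 were called, and with size factors of the DESeq2 type 2 were. No share of all genes called is given for these fits. Over the members, 8 lay wholly lower in floxed libraries, where 16.1% of all genes did, and 11 wholly higher, where 16.3% did.

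The 11 that lay wholly higher in VavCre Arid1b floxed libraries did not pass the test. Mx1 had 32.5, 48.9 and 45.8 CPM in floxed and 2.21, 8.29 and 3.80 CPM in control libraries, a log2 fold change of 3.15 ± 1.00 (± SE; adjusted p in edgeR, 0.0615). Oas3, which makes long oligoadenylates, had 21.3, 20.5 and 30.6 CPM in floxed and 3.55, 4.63 and 4.72 CPM in control libraries, a log2 fold change of 2.48 ± 0.87 (edgeR adjusted p = 0.0922). Irf9, a DNA-binding partner of STAT2, stood at 0.99 ± 0.36 (edgeR adjusted p = 0.0967). The others were Irf7, Usp18, Oasl2, Mx2, Cmpk2, Bst2, Xaf1 and Tap1. The list held genes that lay wholly higher and genes that lay wholly lower in the same floxed libraries. So did all genes tested, with 16.3% wholly higher and 16.1% wholly lower, and holding both kinds is by itself no result about the members. The median of the members was 0.19, against -0.06 over all genes.

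Dendritic cell and monocyte markers differed in the same set, where 3.52% of all genes were called higher. The sum of 9 plasmacytoid dendritic cell markers, cells known for making large amounts of interferon, was 1901 to 2526 CPM in floxed and 171 to 943 CPM in control libraries, and 2 of 8 tested were called higher by edgeR. Bst2 is both a member here and a marker there. The sum of 8 conventional dendritic cell markers was 1137 to 1970 CPM in floxed and 46.0 to 253 CPM in control libraries, with 5 of 8 called higher. The sum of 9 monocyte and macrophage markers was 1504 to 2643 CPM in floxed and 480 to 1146 CPM in control libraries, with 3 of 9 called higher. The part of these cells in the result was not tested. Y-positive status followed genotype in this set, and the 2 cannot be told apart within it. With a term for Y-positive libraries over all sets, 0 of the 4 calls were left.

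In the VavCre Arid2 set, 1 of 38 members was lower in floxed libraries and 0 higher, where 1.31% of all genes were called, 1.06% lower and 0.248% higher. That gene was Oas1g, with 3, 1 and 4 reads in floxed and 392, 485 and 123 reads in control libraries, and a log2 fold change of -7.03 ± 1.48 (± SE; adjusted p in edgeR, 0.0255). The call was lost without any of the libraries in turn except control 3. Oas1a stood at -1.71 ± 0.54, Ddx58 at -2.23 ± 0.73 and Eif2ak2 at -0.49 ± 0.21 (edgeR adjusted p = 0.105, 0.115 and 0.205), and in each the floxed libraries lay wholly below the controls. 8 members lay wholly lower in floxed libraries, where 18.2% of all genes did, and 6 wholly higher, where 17.9% did. Those 6 were Irf1, Stat2, Bst2, Gbp2, Psmb9 and Tap1. Ifit1 had 0.417, 0.110 and 0.977 CPM in floxed and 4.41, 8.58 and 0.747 CPM in control libraries, a log2 fold change of -3.18 ± 1.21 (edgeR adjusted p = 0.161). Ifit1 overlapped through control 3. The median of the members was -0.55, against 0.00 over all genes. Ifi44 had 0 reads in floxed and 11 in control libraries, and the lowest control was also at 0 CPM, so the groups overlapped. With 3 counts taken for the whole floxed group as the floor, the ratio of control to floxed was 4.11. That ratio takes the 11 control reads as exact and is not a firm lower bound.

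Neutrophil markers summed to 150 to 858 CPM in VavCre Arid2 floxed and 3883 to 8980 CPM in control libraries, with 1 of 8 called lower. In this set 1.06% of all genes were called lower. B cell markers summed to 2.65 to 6.09 CPM in floxed and 22.97 to 31.9 CPM in control libraries, with 1 of 6 tested called lower. Other sums were wholly higher in floxed libraries, with 0 markers called: 1136 to 1521 CPM in floxed and 347 to 583 CPM in control libraries for plasmacytoid dendritic cells, 174 to 1095 CPM in floxed and 57.5 to 88.5 CPM in control libraries for conventional dendritic cells, and 5.46 to 25.8 CPM in floxed and 1.63 to 3.26 CPM in control libraries for megakaryocytes. The part of these cells in the result was not tested. The difference between the floxed effects of the VavCre sets, Arid1b minus Arid2, called 0 of 38 members by edgeR, with 5 at an unadjusted p under 0.05, 0 by DESeq2 and 13 by limma voom, where edgeR called 0.0142% of all genes. That share is at an adjusted p in edgeR and is no background for the 5 and 13. Oas3 at 3.24 ± 1.20, Oasl2 at 3.85 ± 1.49 and Irf7 at 2.89 ± 1.14 had the smallest p (log2 and SE; edgeR adjusted p = 0.337, 0.363 and 0.374). Of the 3, Irf7 had 16.9, 24.1 and 31.6 CPM in VavCre Arid1b floxed and 7.86, 11.1 and 10.1 CPM in its controls, against 10.8, 5.51 and 14.5 CPM in VavCre Arid2 floxed and 33.6, 44.8 and 13.0 CPM in its controls.

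In the MxCre set titled A2, 0 of 38 members were called by edgeR, with 16 at an unadjusted p under 0.05, 4 by DESeq2 and 2 by limma voom, where edgeR called 0.0284% of all genes. That share is at an adjusted p and is no background for the 16, 4 and 2. 35 of the 38 were positive, with a median of 0.98 against 0.02 over all genes. Without floxed 3, 15 were positive and 23 negative, and the median was -0.19. Isg20, which had the smallest p, had 6.08, 3.5 and 23.2 CPM in floxed and 2.99, 2.81 and 2.52 CPM in control libraries, a log2 fold change of 1.97 ± 0.56 (± SE; adjusted p in edgeR, 0.239). Herc6, the mouse ligase for Isg15, had 24.2, 25.8 and 53.7 CPM in floxed and 15, 20.2 and 20.2 CPM in control libraries, and Ifit2 had 27.6, 42.0 and 77.8 CPM in floxed and 11.6, 15.7 and 21.6 CPM in control libraries. Both lay wholly higher in floxed libraries, as did Isg20, Oas2 and Eif2ak2, where 7.18% of all genes did, and 0 members lay wholly lower, where 7.78% of all genes did. Herc6 stood at 0.90 ± 0.27 and Ifit2 at 1.59 ± 0.48 (edgeR adjusted p = 0.263 and 0.273).

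In the MxCre set titled A1b, 0 of 38 members were called by edgeR, with 1 at an unadjusted p under 0.05 and 0 by DESeq2 and by limma voom, where edgeR called 0.00709% of all genes. The median was -0.44, against 0.01 over all genes. Ifit3 had 0.259, 1.39 and 0.0855 CPM in floxed and 3.26, 13.9 and 3.44 CPM in control libraries, a log2 fold change of -3.58 ± 1.5 (± SE; adjusted p in edgeR, 0.229). Herc6 stood at -0.52 ± 0.26 and Stat2, a partner of IRF9, at -0.53 ± 0.33 (edgeR adjusted p = 0.319 and 0.403). 8 members lay wholly lower in floxed libraries, where 7.55% of all genes did, and these were Usp18, Herc6, Oasl2, Ifit3, Mx1, Mx2, Trim30a and Parp14. No member lay wholly higher, where 6.55% of all genes did. The difference between the floxed effects of the MxCre sets, A2 minus A1b, called 0 of 38 by edgeR, with 14 at an unadjusted p under 0.05, 6 by DESeq2 and 0 by limma voom, where edgeR called 0.192% of all genes, 0.121% positive and 0.0709% negative. Those shares are at an adjusted p and are no background for the 14 and 6. Herc6 at 1.42 ± 0.37, Ifit3 at 7.82 ± 2.12 and Ifit1 at 5.54 ± 1.71 had the smallest p there (edgeR adjusted p = 0.0856, 0.0917 and 0.122).

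**Figure D5:**
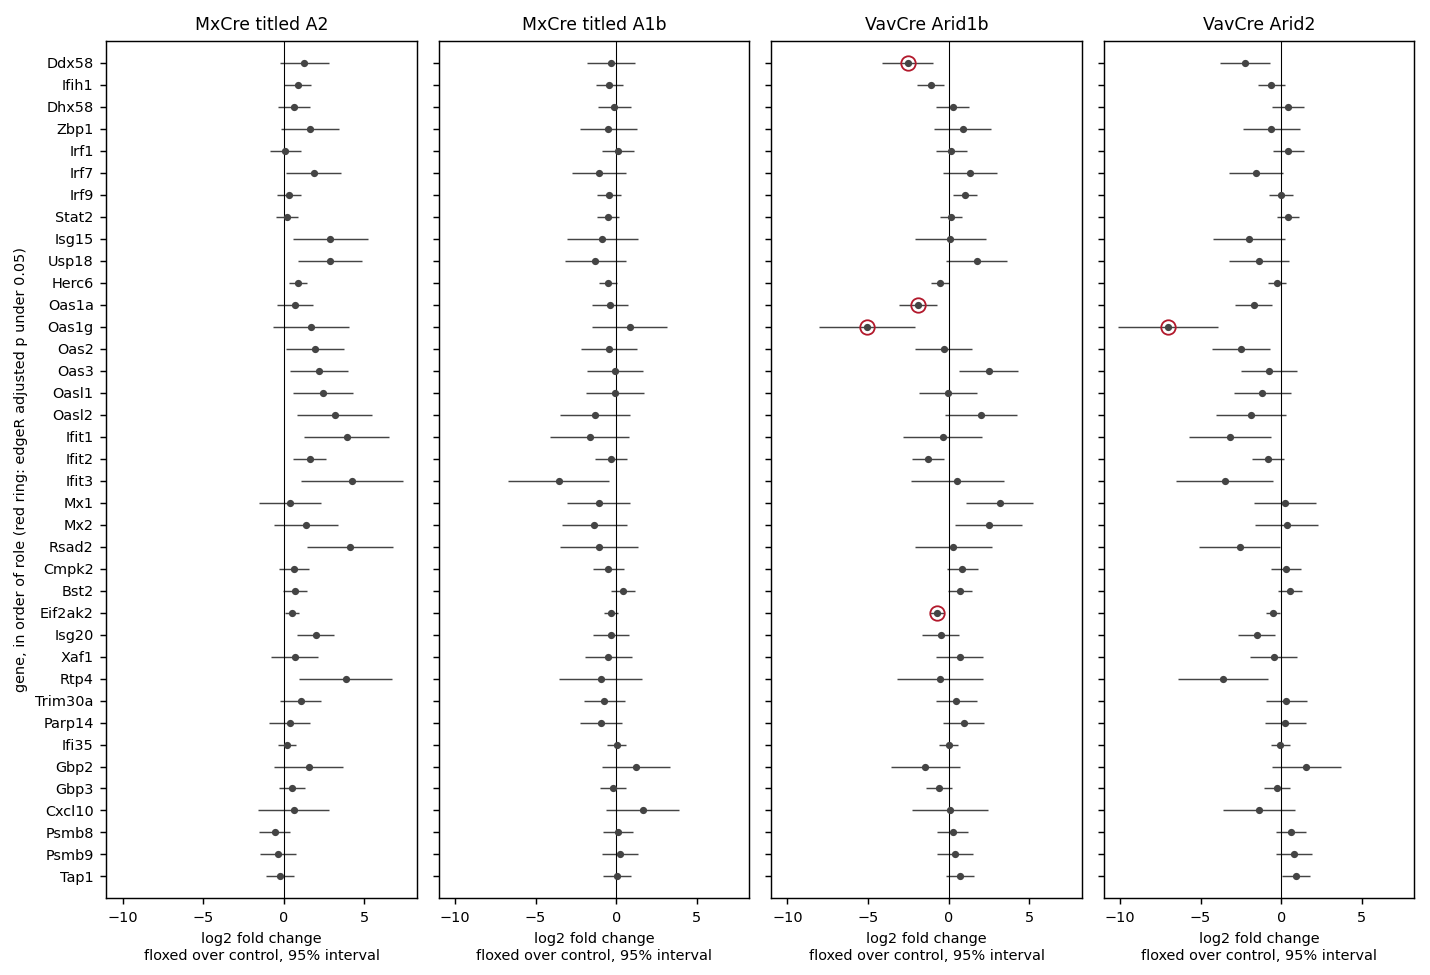
Log2 fold change of floxed over control with its 95% interval for each of the 38 tested genes (rows), in each of the 4 sets (panels). Red rings mark an edgeR adjusted p under 0.05, which 4 genes reached in the VavCre Arid1b set, 1 in the VavCre Arid2 set and 0 in each MxCre set.

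The floxed effect of the MxCre sets minus that of the VavCre sets was tested as a difference of differences. 6 of 38 members passed, all with a positive difference, 15.8% of the members, where 8.87% of all genes were called, 4.68% with a positive and 4.19% with a negative difference. Oas1g differed by 7.31 ± 1.28, Ddx58 by 2.86 ± 0.72, Oas1a by 1.97 ± 0.54, Ifit2 by 1.68 ± 0.47, Isg20 by 1.83 ± 0.54 and Eif2ak2 by 0.71 ± 0.21 (log2 and SE; edgeR adjusted p = 0.00783, 0.0257, 0.0339, 0.0368, 0.0430 and 0.0421). The count was 1 to 3 without any of MxCre titled A2 floxed 2, controls 1 and 2, MxCre titled A1b floxed 1, controls 1 and 3, VavCre Arid1b floxed 1 and 3, controls 1 and 3, and VavCre Arid2 floxed 1 and 2, controls 1 and 2, in turn. With no filter on low counts it was 3, and with Y-positive status as a covariate 2. No share of all genes called is given for these counts. The comparison uses the floxed libraries of the preceding ones and is no separate evidence. Without MxCre titled A2 floxed 3, 14 members passed, these 6 with positive and 8 with negative differences, where 20.3% of all genes were called. The 8 were Irf9, Stat2, Mx1, Mx2, Oas3, Cmpk2, Parp14 and Tap1, with Mx1 at -3.32 (edgeR adjusted p = 0.00905).

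Sets with the same Cre gave the size of set-to-set differences with no difference in driver or pIpC. Floxed and control libraries were pooled in each set, so the gene named for the floxed allele differed between sets. Depth differed too between the VavCre sets, with 17093477 to 23472856 counts in the Arid1b set and 28079167 to 38315410 in the Arid2 set. The VavCre Arid1b set against the VavCre Arid2 set gave 0 calls among 38 members by edgeR, with 2 at an unadjusted p under 0.05, 0 by DESeq2 and 6 by limma voom, where edgeR called 1.57% of all genes, 1.23% higher and 0.333% lower in the Arid1b set. Ifit2 at -0.75 ± 0.33, Ifih1 at -0.61 ± 0.28 and Psmb9 at 0.68 ± 0.38 had the smallest p (log2 and SE; edgeR adjusted p = 0.283, 0.298 and 0.406). The MxCre set titled A2 against the MxCre set titled A1b gave 0 calls by edgeR, with 0 at an unadjusted p under 0.05 and 0 by DESeq2 and by limma voom, and edgeR called 0 of all genes. Psmb8 stood at -0.62 ± 0.32, Psmb9 at -0.70 ± 0.38 and Irf1 at -0.49 ± 0.33 (edgeR adjusted p = 0.996 for each).

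The other genes of the pathway were read from lists chosen together with the members. Interferon transcripts themselves were close to absent from the tables: of 13 ligand genes 0 passed the filter, with 5 reads of Ifnb1, 53 of Ifng and 40 of Ifnk over all 24 libraries, and 8 ligand genes had no read. At these counts no difference in ligand level was detectable. Of 6 receptor genes, 2 were higher in VavCre Arid1b floxed libraries than in their controls, Ifnar1 at 0.90 ± 0.26 and Ifnar2 at 1.01 ± 0.29 (log2 and SE; edgeR adjusted p = 0.0419 and 0.0464), which encode both chains of the type I receptor. In that comparison 6.57% of all genes were called. In MxCre floxed against VavCre floxed libraries, Ifnar1 at -0.63 ± 0.18 and Il10rb at -0.75 ± 0.19 were lower and Ifnlr1 at 2.13 ± 0.60 higher (edgeR adjusted p = 0.0354, 0.0246 and 0.0339). There 9.25% of all genes were called, and a list of 6 genes is short.

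Of 11 genes of receptor signalling and its inhibitors, 1 was higher and 0 lower in MxCre floxed against VavCre floxed libraries, where 9.25% of all genes were called. That gene was Socs1, a feedback inhibitor of JAK kinases, at a log2 fold change of 1.96 ± 0.30 (± SE; adjusted p in edgeR, 0.00314). In VavCre Arid1b floxed libraries 1 was higher, the phosphatase gene Ptpn6 at 0.59 ± 0.17 (edgeR adjusted p = 0.0405), where 6.57% of all genes were called. Of 16 tested genes of nucleic acid sensing, Mavs, the adaptor of RIG-I and MDA5, was lower in MxCre floxed than in VavCre floxed libraries, at -0.88 ± 0.21 (edgeR adjusted p = 0.0179). Traf3 was lower in VavCre Arid1b floxed libraries than in controls, at -0.90 ± 0.27 (edgeR adjusted p = 0.0493). Each of these 1-gene calls is a result about that gene and not about its list. No gene of these lists passed in MxCre against VavCre with all libraries (0 of 6, 0 of 11 and 0 of 16 by edgeR, with 1, 2 and 4 at an unadjusted p under 0.05).

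A further 52 interferon-stimulated genes were tested. 0 passed in MxCre against VavCre by edgeR, with 9 at an unadjusted p under 0.05. In MxCre floxed against VavCre floxed, 7 were higher and 0 lower, 13.5% of the list, where 6.04% of all genes were called higher and 3.21% lower, with the GTPase genes Gbp7 at 2.07 ± 0.30 and Gbp6 at 3.59 ± 0.74 and the helicase gene Ddx60 at 3.03 ± 0.68 (log2 and SE; edgeR adjusted p = 0.00229, 0.00953 and 0.0145). In VavCre Arid1b floxed libraries 3 were higher and 5 lower than in controls, where 3.52% of all genes were called higher and 3.05% lower, among them Ifitm2 at 1.65 ± 0.34, Gbp7 at -2.74 ± 0.44 and Lgals9 at -0.99 ± 0.20 (edgeR adjusted p = 0.0117, 0.0036 and 0.0114). In VavCre Arid2 floxed libraries Lgals9 was lower, at -1.03 ± 0.20 (edgeR adjusted p = 0.0192), where 1.06% of all genes were called lower, and no other gene of that list passed. Of 14 genes of MHC class I presentation, 2 were higher in VavCre Arid1b floxed libraries, H2-Q7 at 4.16 ± 1.04 and H2-Q6 at 4.22 ± 1.18 (edgeR adjusted p = 0.0265 and 0.0402). These neighbours are near-identical copies, and their reads may be split between them.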

How the data were processed

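RNA was measured in 24 libraries, 8 groups of 3. Per the labels' protocols, RNA was extracted with TRIzol, poly(A) RNA was selected and directional libraries were made. STAR and mm10 are named in the submitters' processing notes. No counter, annotation or strand setting is given in the sources used here. The authors deposited raw read counts for each symbol, and 2194 of 24046 genes had no read, and 0 columns were left unused. Groups follow the titles.

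Counts were analysed in edgeR 4.0.16 (R 4.3.3) with filterByExpr (minimum count 10, total 15), trimmed mean of M values scaling, 8 group means and robust quasi-likelihood (16 residual degrees of freedom, common biological coefficient of variation 0.4). Adjustment was Benjamini-Hochberg over 14099 genes. The code was tested on simulated data. RPKM used exon lengths of GENCODE M21. Alternatives used DESeq2 1.42.0 and limma 3.58.1, other filters and scalings, and libraries left out. MxCre against VavCre within floxed and within control libraries was added after the data were seen. No pair of replicates agreed within sampling noise.

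The members, gene lists, tests and the 3 libraries that stood apart were chosen with earlier results of these data known. Named are the called members of each comparison, or the 3 with the smallest p, and in each role the member with the smallest p in MxCre against VavCre and that with the highest RPKM. Genes shown for the library that stood apart, those whose groups do not overlap and Mx1 in MxCre against VavCre were named after their values were seen. The intervals in the figures come from the edgeR fit and include the spread among libraries. The floor used for Ifi44 allows for counting error in the floxed group only.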

Additional observations from a re-analysis of the deposited data

Results flagged for a closer look

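The effect of the floxed alleles differed between the MxCre and VavCre sets for 6 members by a test of the difference itself (edgeR, over 14099 genes), with 8.87% of all genes called. The differences, MxCre minus VavCre on the log2 scale, were 7.31 for Oas1g, 2.86 for Ddx58, 1.97 for Oas1a, 1.83 for Isg20, 1.68 for Ifit2 and 0.71 for Eif2ak2. Leaving out each of 24 libraries in turn, Oas1g passed in 24 fits, Ddx58 in 19, Oas1a in 13, Ifit2 in 11, and Isg20 and Eif2ak2 in 8 each. All 6 had log2 fold changes below 0 in both VavCre sets. Driver, pIpC and set cannot be told apart.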

How the results depend on the processing

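Counts of called members (of 38) depended on the processing. No member called by edgeR with all libraries changed sign in the alternatives run for that comparison. Members called only in an alternative could change sign. Oas3 in MxCre floxed against VavCre floxed, called in 3 alternatives, ranged from -1.43 to 0.62. The share of all genes called also changed with the fit and is not given here. A higher count is therefore by itself no result about the members. For the VavCre Arid1b set (4 calls), DESeq2-type size factors gave 2, DESeq2 7, limma voom with sample quality weights 15, no filter on low counts 0, the set's own libraries 8, a term for Y-positive libraries 0, and leaving out a library 0 to 2. For the VavCre Arid2 set (1 call), DESeq2 gave 6, limma voom 18, omitting the 3 libraries that stood apart 5, and leaving out a library 0 to 1. For the MxCre set titled A2 (0), DESeq2 gave 4 and limma voom 2. For MxCre against VavCre (0), DESeq2 gave 2, omitting the 3 libraries 2, floxed libraries only 7, and leaving out a library 0 to 1, the 1 being without VavCre Arid2 floxed 3. For MxCre floxed against VavCre floxed (7), DESeq2 gave 14, no filter 4, the 12 libraries alone 1, omitting the 3 libraries 18, the Y term 3, and leaving out a library 1 to 11. For controls (0), limma voom gave 2. For the difference of MxCre and VavCre floxed effects (6), limma voom gave 14, no filter 3, omitting the 3 libraries 13, the Y term 2, and leaving out a library 1 to 14. For the difference between the VavCre sets' floxed effects (0), limma voom gave 13 and omitting the 3 libraries 1. For that between the MxCre sets (0), DESeq2 gave 6 and leaving out a library 0 to 4, the 4 being without MxCre titled A1b floxed 1. For the VavCre Arid1b set against the VavCre Arid2 set (0), limma voom gave 6 and omitting the 3 libraries 1. The causes were not tested.

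Replicate numbers did not pair the samples: same-numbered libraries had correlations of deviations between -0.26 and 0.29. With a replicate block nested in set, the counts were 0 for each set and for each difference between floxed effects, with 7 residual degrees of freedom. With the number as a term, MxCre floxed against VavCre floxed gave 4, and MxCre against VavCre, the controls and both comparisons of sets with the same Cre gave 0. Depth limits Ifi44, the interferon genes and Oas1g, the last in VavCre floxed libraries (1 to 4 reads each) and in its lowest MxCre controls.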
